A study of Arabidopsis thaliana with 15 samples.

Results

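BGLU33 (AT2G32860) and BGLU47 (AT4G21760) are beta-glucosidases of glycosyl hydrolase family 1, and their transcripts followed different courses in hypocotyls moved from short to long days. BGLU33 was lowest on day 2, at 2.08-fold below day 0, and highest on day 10. BGLU47 was lower on each day from day 2 on and stood 8.77-fold below day 0 on day 10. Both genes were chosen by their log2 values over the 5 days on these same arrays, so their levels and differences are given without a test. Each of the 2 genes is measured by 1 probe set annotated to that gene alone, out of 16550 genes with such a probe set. Where a gene has several probe sets, that with the highest mean was used.

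The arrays hold hypocotyls of Arabidopsis thaliana Col-0, the common laboratory accession, which carried no transgene or mutation that the labels name. Plants grew at 22 degrees C for 6 weeks in short days with 8 h of light and were then given long days with 16 h of light, a switch that induces flowering. Harvests of hypocotyls fell 0, 1, 2, 4 and 10 days after that change, with 3 pools of 8 plants per day and 15 arrays in all. The study concerns abscisic acid (ABA) and xylem fibre formation. Day 0 plants had seen short days alone, and no plants kept on in short days are among the samples, so long days and the added age of the plants cannot be told apart.

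Family 1 beta-glucosidases cut glucose from small molecules that plants store as inactive glucosides. ABA, a hormone of drought and cold responses, is stored in the vacuole as its glucose ester, and BGLU33 is one of the enzymes known to release it in Arabidopsis. Monolignols, the building blocks of lignin, can likewise be held as glucosides such as coniferin. BGLU47 belongs by sequence to a clade with BGLU45 and BGLU46, which cleave monolignol glucosides. Glucosyltransferases of the UGT71 and UGT72 groups attach the glucose that these enzymes remove.

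The deposited values are normalised intensities on a linear scale, which were taken to log2. Array medians ran from 84.1 to 90.6. The correlation between same-day arrays was 0.983 to 0.990, and that between arrays of different days was 0.965 to 0.988. Both were taken over probe sets, which do not count as replicates. Among markers of cell types in the hypocotyl, 2 of 7 for xylem were measured (IRX10 and IRX15), 3 of 4 for green tissue (RCA, LHCB4.1 and PRK) and 2 of 3 for root hairs (EXPA7 and EXPA18). No marker on the lists for phloem, cambium, periderm or flower had a matched probe set, so those tissues are not analysed here. In a whole hypocotyl, fewer cells of a type and less RNA per cell cannot be told apart.

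BGLU33 had intensities of 1802, 1891 and 1871 on day 0. On day 1 its 3 pools read 1736, 1292 and 1514, the widest spread of any day. On day 2 they read 889, 901 and 882. These 3 pools of day 2 lay close together and below every other pool of the course. On day 4 the pools read 1507, 1718 and 1618, within the range of the day 1 pools. On day 10 they read 1921, 2148 and 2094, each above all pools of day 0. BGLU33 was lowest in the middle of the course and highest at its end.

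On the log2 scale BGLU33 averaged 10.86 ± 0.04 on day 0, 10.55 ± 0.21 on day 1, 9.80 ± 0.02 on day 2, 10.65 ± 0.09 on day 4 and 11.00 ± 0.08 on day 10 (SD, n = 3 pools each). Day 2 stood 2.08-fold below day 0 (log2 difference −1.06 ± 0.10, SE). Day 2 stood 1.69-fold below day 1, and day 4 stood 1.81-fold above day 2. The log2 difference between day 1 and day 0 was −0.30, and it was −0.19 without day 1 replicate 2, the lowest pool of that day. At its end the course had passed its starting level by 1.11-fold (log2 difference 0.15 ± 0.10 between day 10 and day 0), a gap little larger than the pooled SD of 0.11. The order of the days was 10, 0, 4, 1 and 2 from highest to lowest. Days 4 and 1, neighbours in that order, had overlapping pools and differed by 0.10 on the log2 scale, less than the pooled SD.

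BGLU47 had intensities of 2534, 2847 and 3176 on day 0 and of 2976, 2584 and 3118 on day 1. The pools of these 2 days overlapped. On day 2 the pools read 1909, 1943 and 1875, and on day 4 they read 1430, 1457 and 1327. On day 10 they read 327, 302 and 343. From day 2 on, each day sampled lay wholly below the one before it. Such a separation of pools held for 32.1% of all probe sets between day 2 and day 1, for 25.4% between day 4 and day 2 and for 33.8% between day 10 and day 4.

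BGLU47 averaged 11.47 ± 0.16 on day 0, 11.49 ± 0.14 on day 1, 10.90 ± 0.03 on day 2, 10.45 ± 0.07 on day 4 and 8.34 ± 0.09 on day 10 on the log2 scale (SD, n = 3 pools each). Its log2 difference from day 0 was 0.02 ± 0.09 on day 1, −0.57 ± 0.09 on day 2, −1.02 ± 0.09 on day 4 and −3.13 ± 0.09 on day 10 (SE). The largest step between successive days sampled came last, with day 10 standing 4.33-fold below day 4, while day 4 stood 1.36-fold below day 2. The order of days was 1, 0, 2, 4 and 10 from highest to lowest, and days 1 and 0 were the only neighbours with overlapping pools. Of 16550 genes, 27 were lowered at least as much as BGLU47 on day 10, itself included. On day 2, 160 genes were lowered at least as much as BGLU33, itself included.

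**Figure D1:**
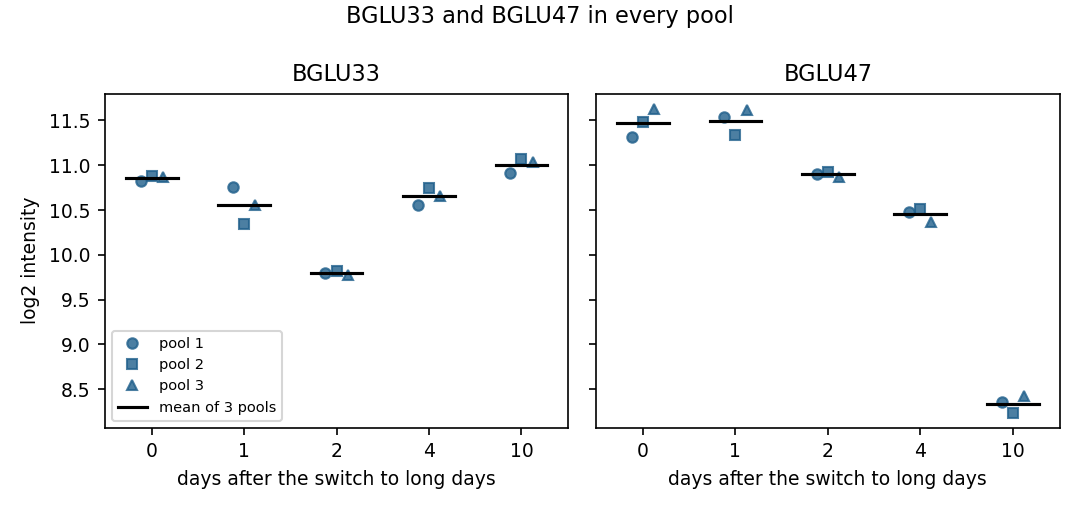
Log2 intensity of BGLU33 (left) and BGLU47 (right) in every pool on days 0, 1, 2, 4 and 10 after the switch to long days, with the days evenly spaced rather than to scale. Points are single pools of 8 plants, shaped by replicate number, and bars are means of 3 pools. BGLU33 has its lowest mean, 9.80, on day 2 and its highest, 11.00, on day 10, and BGLU47 has its lowest, 8.34, on day 10.

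The 2 genes were alike in signal and in how little their pools varied. Mean signal was above that of 94.7% of all probe sets for BGLU33 and 94.4% for BGLU47. Within a day their pools had a residual SD of 0.11 on the log2 scale for each gene. Of all probe sets, many of them dimmer, 72.8% had a larger one than BGLU33 and 73.7% a larger one than BGLU47. Among other family genes of high signal it was 0.05 for BGLU23, 0.08 for BGLU44, 0.10 for BGLU40 and 0.33 for BGLU15. Over the 15 arrays the log2 values of BGLU33 and BGLU47 correlated at r = −0.39, given as a description of arrays that share days. On day 2 both were below day 0, with log2 differences of −1.06 for BGLU33 and −0.57 for BGLU47. On day 10 they parted, with BGLU33 at 0.15 and BGLU47 at −3.13. Pools of 2 days that do not overlap are common in these data: against day 0 this held for 22.0%, 36.2%, 40.5% and 41.5% of all probe sets on days 1, 2, 4 and 10.

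Among the relatives of BGLU47, BGLU45 (AT1G61810) fell early and BGLU46 (AT1G61820) moved less evenly. BGLU45 read 149, 168 and 123 on day 0, 72.2, 56.4 and 69.4 on day 1 and 48.0, 48.0 and 35.5 on day 2. It read 40.6, 43.2 and 40.7 on day 4 and 37.0, 43.1 and 35.4 on day 10. Every later pool of BGLU45 lay below all pools of day 0, and its fall was 2.22-fold on day 1 (log2 difference −1.15 ± 0.15, limma adjusted p = 5.20e-04). By day 10 BGLU45 was 3.80-fold below day 0 (−1.93 ± 0.15, limma adjusted p = 1.19e-06). On day 1 the log2 difference of BGLU47 was 0.02.

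BGLU46 read 602, 437 and 326 on day 0, 202, 304 and 302 on day 1 and 272, 204 and 130 on day 2. It read 426, 338 and 349 on day 4 and 275, 196 and 209 on day 10. Its pools spread widely, with a residual SD of 0.37, and the day 4 pools overlapped those of day 0. BGLU46 fell 2.28-fold on day 2 (−1.19 ± 0.28, limma adjusted p = 0.0106) and 1.97-fold on day 10 (−0.98 ± 0.28, limma adjusted p = 0.0209). Days 1 and 4 did not pass, at log2 differences of −0.73 and −0.26. The call on day 2 was lost with only the 6 arrays compared (adjusted p = 0.0737), and that on day 10 when pool 1 or 2 of day 0, or pool 2 or 3 of day 10, was left out (adjusted p = 0.0522 to 0.0878). BGLU45 and BGLU46 lie next to each other in the reference annotation, and the probe sequences were not used here, so signal shared between close copies cannot be told apart.

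**Figure D2:**
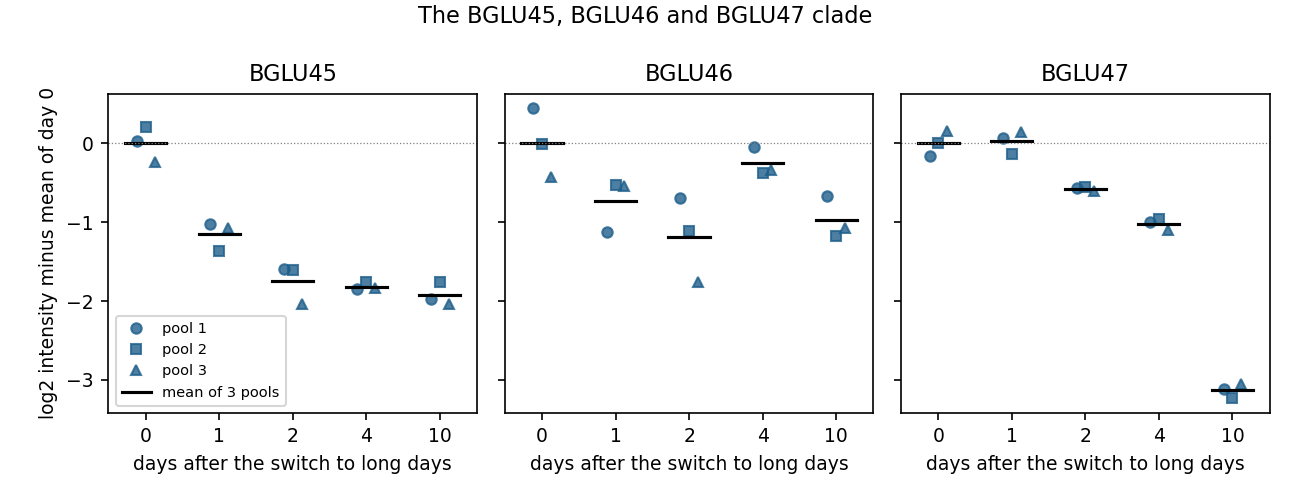
Log2 intensity minus the day 0 mean for BGLU45, BGLU46 and BGLU47 in every pool, on days 0, 1, 2, 4 and 10 spaced evenly rather than to scale. Points are single pools and bars are means of 3 pools. BGLU45 is already at −1.15 on day 1 when BGLU47 is at 0.02, and on day 10 they are at −1.93 and −3.13.

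Of the 48 family 1 genes on the BGLU list, 24 were matched to a probe set, and the 22 besides BGLU33 and BGLU47 were tested. On day 1, 1 rose and 1 fell, where 4.88% of all 38408 probe sets were called, 2.39% higher and 2.49% lower. On day 2, 1 rose and 4 fell, against 20.4% of all probe sets called, 10.0% higher and 10.3% lower. The numbers were again 1 and 4 on day 4, where 25.7% of all probe sets were called, 11.5% higher and 14.2% lower. With arrays centred on their medians, 59.7%, 62.9% and 60.6% of all calls on days 1, 2 and 4 were on the higher side, against 49.0%, 49.3% and 44.8% for the values as deposited. These shares of the family, up to 5 of 22, were near the background. On day 10, 2 rose, 9 fell and 11 did not pass, where 28.8% of all probe sets were called, 14.8% higher and 14.0% lower. The median log2 difference of the 22 genes was −0.06, 0.05, 0.04 and −0.40 on days 1, 2, 4 and 10, against 0.005, −0.008, −0.033 and 0.006 over all probe sets.

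The family members that fell by day 10 included enzymes of the ER body, a store of beta-glucosidase in the endoplasmic reticulum of roots and hypocotyls. BGLU23, known as PYK10 and the main ER body enzyme, was 1.97-fold lower on day 10 (log2 −0.97 ± 0.06, limma adjusted p = 2.18e-07) and was already lower on days 2 and 4, at log2 differences of −0.31 and −0.50. Its close relative BGLU22 fell 3.15-fold on day 10 (−1.66 ± 0.15, limma adjusted p = 4.67e-06), while its log2 differences on the earlier days were 0.23, 0.24 and 0.00 and did not pass. The pools of BGLU22 read 90.0 to 131 on day 10 and 323 to 407 on day 0. BGLU21, the gene next to BGLU22, was lower on day 4 alone (−0.66 ± 0.19, limma adjusted p = 0.0220). Leaving out day 0 replicate 1 or 3, or pool 2 or 3 of day 4, ended that call (adjusted p = 0.0506 to 0.0779).

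BGLU42 fell on days 2, 4 and 10, reaching 1.82-fold below day 0 (−0.86 ± 0.10, limma adjusted p = 3.49e-05). BGLU44, which acts on mannosides, fell 1.80-fold on day 10 (−0.84 ± 0.07, limma adjusted p = 3.58e-06), with pools of 3165 to 3656 on day 10 and 5677 to 6145 on day 0. On day 4 BGLU44 was at −0.21 and did not pass, but passed at an adjusted p of 0.0311 to 0.0467 in 5 of the alternatives. BGLU16, BGLU24 and BGLU25 also fell on day 10, at log2 differences of −0.71, −1.07 and −0.52. The log2 values of BGLU24 were 3.50, 3.77 and 3.91 on day 10, against 4.78, 4.72 and 4.91 on day 0. All 3 day 10 pools lie below the lower quartile of the arrays, an intensity of 23.5 to 25.9, so the size of its difference is uncertain. Beside BGLU45 and BGLU46 these complete the 9 that fell.

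BGLU40 and BGLU31 went the other way. BGLU40 was higher on all 4 later days, by 0.46, 0.36, 0.65 and 0.32 on the log2 scale, and the rise on day 4 was 1.57-fold (limma adjusted p = 2.18e-04). Its calls on days 1, 2 and 10 were lost with only the 6 arrays compared (adjusted p = 0.0716, 0.0587 and 0.109). They were also lost without day 0 replicate 2, at 0.0519, 0.0555 and 0.0652. Without day 0 replicate 1 its calls on days 2 and 10 were lost at 0.0518 and 0.0671, without day 2 replicate 3 that on day 2 at 0.0511, and without day 10 replicate 1 that on day 10 at 0.0729. BGLU31 rose 2.73-fold on day 10 (1.45 ± 0.38, limma adjusted p = 0.0125), with pools of 413 to 464 on day 10 and 110 to 246 on day 0, and its call was lost without day 0 replicate 3 (adjusted p = 0.0572).

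The remaining 10 genes of the family passed on none of the 4 days in limma: BGLU15, BGLU19, BGLU20, BGLU27, BGLU28, BGLU29, BGLU32, BGLU36, BGLU41 and BGLU43. Of these, BGLU20, BGLU28, BGLU29, BGLU32, BGLU36 and BGLU43 read below the lower quartile of the array on at least 8 of the 15 arrays, and a low signal limits what can be measured there. At an unadjusted p below 0.05, 1 of the 10 differed from day 0, BGLU36 on day 10, and it passed without day 1 replicate 2 (adjusted p = 0.0478). Of all 38408 probe sets, 6075, 12282, 13787 and 14653 had such an unadjusted p on days 1, 2, 4 and 10. In the limma F test over the 5 days BGLU36 passed (adjusted p = 0.0269). BGLU15 had a high signal on every day, at 819 to 1833, but its pools spread widely, with a residual SD of 0.33. Over the 15 arrays, the log2 values of BGLU47 correlated at r = 0.97 with BGLU23, 0.93 with BGLU44 and 0.91 with BGLU22, and those of BGLU33 at no more than 0.57, with BGLU36. The lowest values were −0.80 for BGLU47, with BGLU31, and −0.58 for BGLU33, with BGLU16, BGLU22 and BGLU44. The arrays share their days, so these values only describe similar or opposite courses.

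The step between day 10 and day 4, in which BGLU47 was 4.33-fold lower, was looked at across the family after the values were seen. Of the 22 other BGLU genes, 7 were lower on day 10 than on day 4 and 0 were higher in limma, or 9 and 0 at an unadjusted p below 0.05. Of all probe sets, 17.1% were called in that step, 9.41% higher and 7.70% lower. Their share at an unadjusted p below 0.05 in that step is not given here. BGLU22 was 3.16-fold lower (log2 −1.66 ± 0.15, limma adjusted p = 1.56e-05), and BGLU24, dim on day 10, was at −1.61, or at −1.21 without day 4 replicate 3, which read 70.6 where the other day 4 pools read 30.6 and 30.8. The other 5 that passed were BGLU16, BGLU44, BGLU25, BGLU23 and BGLU40, at −0.87, −0.63, −0.61, −0.48 and −0.33. The call of BGLU40 in this step was lost in 5 alternatives (adjusted p = 0.0547 to 0.110). BGLU40 was below its day 4 level while still above day 0. BGLU45 differed by −0.11 in this step and did not pass, and BGLU33 was 1.27-fold higher on day 10 than on day 4.

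**Figure D3:**
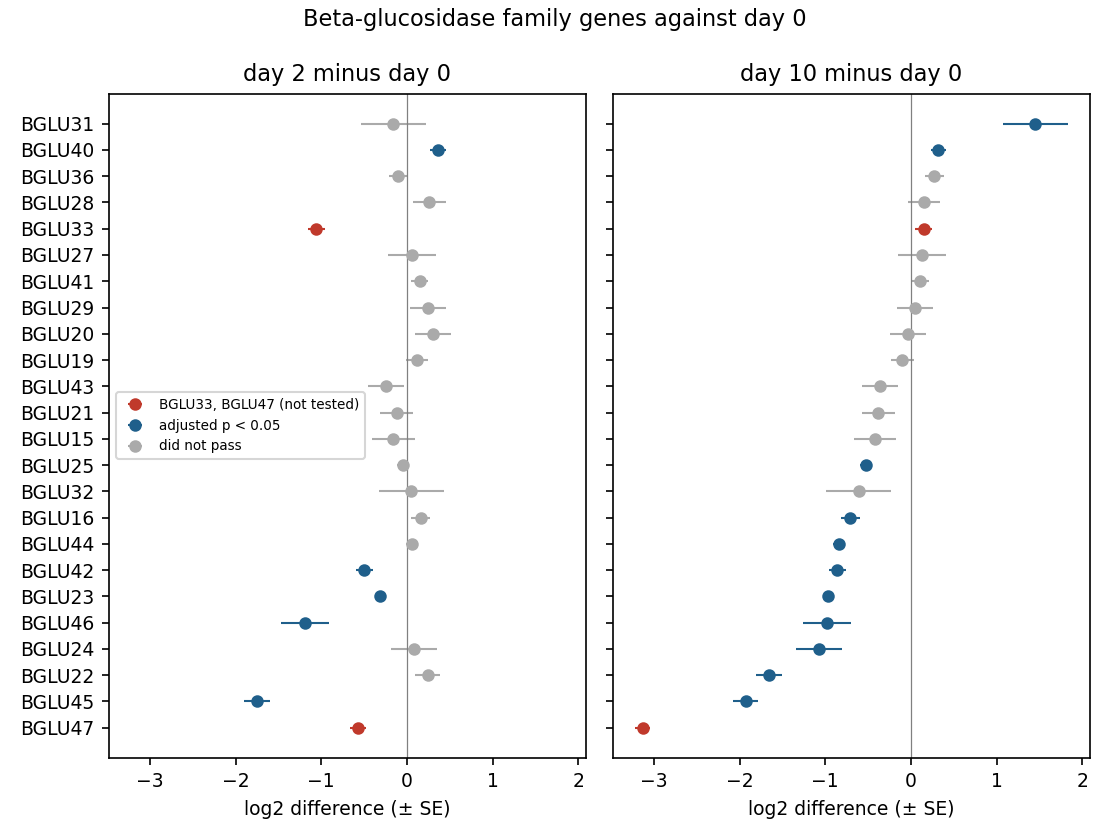
Log2 difference from day 0 on day 2 (left) and day 10 (right) for the 24 measured beta-glucosidase genes, ordered by their value on day 10. Points are differences between means of 3 pools and bars are SE of the moderated fit. BGLU33 and BGLU47 are in red and were not tested, and blue marks the genes that passed, of which 5 are on day 2 and 11 on day 10.

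Of the 14 listed genes of ABA conjugation, release and turnover, 5 had a probe set, which are BGLU33 and 4 glucosyltransferases. UGT71C5, which makes the ABA glucose ester, rose 1.71-fold on day 10 (log2 0.78 ± 0.19, limma adjusted p = 0.00751), and its differences on days 1, 2 and 4 were −0.25, −0.05 and 0.26. AT3G21790, listed as UGT71B7, fell 1.49-fold on day 4 (−0.58 ± 0.16, limma adjusted p = 0.0161). The call ended when pool 3 of day 0 or of day 4 was left out (adjusted p = 0.0712 and 0.0516). UGT71B6, another ABA glucosyltransferase, and UGT71B8 did not pass on any day. UGT71B6 has 2 probe sets, whose log2 differences on day 2 were −0.39 and −0.12, and neither passed. On day 2, when BGLU33 was lowest, 0 of these 4 genes passed in limma and 1, UGT71B6, was lower at an unadjusted p below 0.05. Of all 38408 probe sets, 20.4% were called on day 2 and 12282 had an unadjusted p below 0.05. UGT71B6 passed on that day without day 2 replicate 1 (adjusted p = 0.0162). BGLU18 and BGLU10, which also release ABA from its glucose ester, the ABA hydroxylases and the genes of ABA synthesis are not analysed here.

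Of 16 listed genes known to respond to ABA, 8 were measured, and 5, 6, 6 and 8 passed on days 1, 2, 4 and 10, where 4.88%, 20.4%, 25.7% and 28.8% of all probe sets did. This list was chosen with earlier results of these data known, so the counts describe these genes and are no independent support. COR15A, COR15B, COR47, LTI30 and COR6.6, proteins of cold and drought responses, fell on days 1, 2, 4 and 10. KIN1 and AT3G02480 fell on day 10. COR15B read 9.68 to 56.5 and lay below the lower quartile on 12 of the 15 arrays, so the size of its fall is uncertain. The linker histone gene HIS1-3 rose on days 2, 4 and 10. It read 13.7 to 118 and lay below the lower quartile on 4 of the 15 arrays, so the size of its rise is uncertain. Lost calls were those of COR6.6 on day 1, in 14 alternatives at up to 0.156, and on day 4 without day 0 replicate 2 or day 4 replicate 1 (adjusted p = 0.0528 and 0.0532), and that of HIS1-3 on day 2 when pool 1 or 3 of day 0, or pool 2 or 3 of day 2, was left out (0.0580 to 0.0884). The summed intensity of the 8 was 17142 to 18702 on day 0, 10502 to 11663 on day 1, 8381 to 9490 on day 2, 10203 to 10998 on day 4 and 5603 to 6420 on day 10. COR15A and COR6.6, which read up to 8951 and 7881, make up most of this sum, and HIS1-3 read at most 118. On day 10 the sum was at its lowest and BGLU33 at its highest, though only 0.15 ± 0.10 (SE) above day 0 on the log2 scale. Between day 2 and day 1, in which BGLU33 was lower, the median log2 difference of the 8 was −0.13, against −0.016 over all probe sets. Between day 4 and day 2, in which BGLU33 was higher, that median was 0.41, against −0.015 over all probe sets. Between day 1 and day 0, with BGLU33 at −0.30, the median was −0.73, against 0.005 over all probe sets. Between day 10 and day 4 BGLU33 was higher, at 0.35, and the median was −0.79, against 0.040 over all probe sets. A link between BGLU33 and these genes was not tested.

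For monolignol glucosides, the enzymes that attach glucose did not move together. UGT72E1, which glucosylates monolignol aldehydes, fell on all 4 days, at log2 differences of −0.63, −0.85, −1.53 and −1.46, or 2.75-fold by day 10 (SE 0.15, limma adjusted p = 1.37e-05). It read 17.6 to 66.5 and lay below the lower quartile on 4 of the 15 arrays, so the size of its fall is uncertain. UGT72B1, which glucosylates monolignols, rose on all 4 days, by 0.28, 0.37, 0.51 and 0.59, or 1.51-fold by day 10 (SE 0.07, limma adjusted p = 4.50e-05). UGT72E2 passed on day 4 (0.59 ± 0.19, limma adjusted p = 0.0341), and on day 2 it passed without day 2 replicate 1 (adjusted p = 0.0221). It read below the lower quartile on 14 of the 15 arrays, so these differences are uncertain. UGT72E3 did not pass on any day, and it read below the lower quartile on 10 of the 15 arrays. Of the 6 listed genes besides BGLU47, 1, 1, 2 and 1 rose and 2, 3, 2 and 3 fell on days 1, 2, 4 and 10, where 4.88%, 20.4%, 25.7% and 28.8% of all probe sets were called. The day 1 count of 3 was 1 in the replicate block and when any pool of day 0, or pool 1 or 3 of day 1, was left out. The day 1 calls of UGT72E1 and UGT72B1 did not hold in a fit that blocks on replicate number (adjusted p = 0.0640 and 0.0871), nor when any of several pools was left out, at up to 0.111 and 0.209 over all alternatives. The call of UGT72E2 was lost in 6 alternatives, at up to 0.132.

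**Figure D4:**
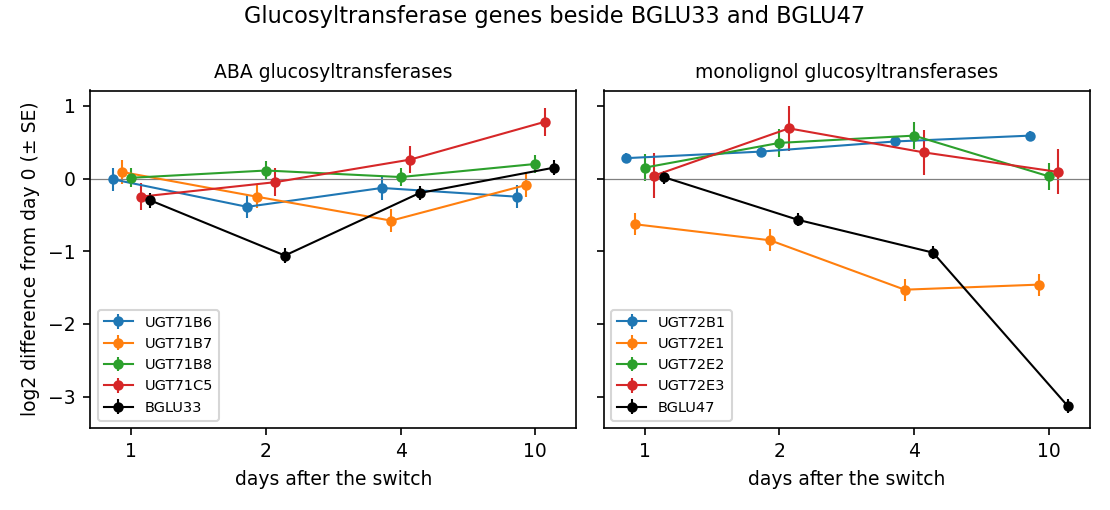
Log2 difference from day 0 on days 1, 2, 4 and 10, evenly spaced, for 4 ABA glucosyltransferase genes beside BGLU33 (left) and 4 monolignol glucosyltransferase genes beside BGLU47 (right). Points are differences between means of 3 pools, bars are SE of the moderated fit and lines join the days of a gene. UGT72E1 lies at −1.46 and UGT72B1 at 0.59 on day 10, when BGLU47 is at −3.13.

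Of 26 listed genes of lignin synthesis and polymerisation, 6 were measured. On day 1, 1 of them fell, PRX72 (limma adjusted p = 0.00403), a call lost with only the 6 arrays compared (adjusted p = 0.0527). On each of days 2, 4 and 10, 1 rose and 2 fell, where 20.4%, 25.7% and 28.8% of all probe sets were called. HCT, an enzyme of monolignol synthesis, rose 1.37-fold by day 10 (log2 0.45 ± 0.07, limma adjusted p = 4.17e-04). CCR2, a cinnamoyl-CoA reductase linked to defence, fell 2.13-fold (−1.09 ± 0.14, limma adjusted p = 7.65e-05). The peroxidase PRX72 fell 1.49-fold (−0.58 ± 0.10, limma adjusted p = 0.00103). HCT did not pass on days 2 and 4 with only the 6 arrays compared (adjusted p = 0.0675 and 0.0758), and CCR2 lost its day 4 call without day 0 replicate 1 or day 4 replicate 2 (0.0540 and 0.0518).

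Markers of green tissue and xylem moved over the days on which BGLU47 was lower. The summed intensity of the 3 green-tissue markers was 1821 to 2021 on day 0, 1433 to 1840 on day 1, 1693 to 1825 on day 2, 1124 to 1263 on day 4 and 803 to 836 on day 10. All 3 fell on days 4 and 10, where 14.2% and 14.0% of all probe sets were called lower. LHCB4.1 lost its day 4 call when pool 2 or 3 of day 0, or pool 1 or 3 of day 4, was left out (adjusted p = 0.0527 to 0.0668). The summed intensity of the 2 xylem markers was 700 to 787 on day 0, 558 to 653 on day 1, 1055 to 1190 on day 2, 1326 to 1382 on day 4 and 2340 to 2569 on day 10. Most of it came from IRX10, which read 535 to 2468, where IRX15 read 23.4 to 102. Both rose on days 2, 4 and 10, where 10.0%, 11.5% and 14.8% of all probe sets were called higher. The green-tissue and xylem lists were chosen with earlier results of these data known, so these counts only describe the measured markers. On day 1 IRX15 fell (−0.34, limma adjusted p = 0.0494), a call lost in 16 alternatives at up to 0.156, and IRX10 was at −0.29 (limma adjusted p = 0.0563). The 2 root hair markers summed to 36.5 to 50.1 over all days and 0 of 2 passed on any day in limma, also at an unadjusted p below 0.05. EXPA18 read below the lower quartile on all 15 arrays and EXPA7 read 24.1 to 34.3, so little can be seen of root hairs. No marker was at 0. The part of changing tissue shares in the courses of BGLU33 and BGLU47 was not tested.

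Genes with courses most like those of the 2 beta-glucosidases were sought by Pearson's r over the 15 arrays, as a description. The nearest to BGLU47 were AT5G67385 (r = 0.991), AT4G16980 (0.988), AT5G48900 (0.987), the beta-expansin gene EXPB3 (0.987) and the dirigent family gene AT4G11190 (0.986). Their log2 differences between day 10 and day 0 were −2.71, −3.61, −3.37, −1.62 and −5.65, and on day 1 they lay between −0.31 and 0.18. The nearest to BGLU33 were AT2G23450 (r = 0.944), AT1G80245 (0.939), AT5G63640 (0.930), AT5G05100 (0.924) and AT2G39850 (0.914). All 5 were lower on day 2 than on day 0, at log2 differences of −0.77 to −0.29, where BGLU33 was at −1.06.

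Neither BGLU33 nor BGLU47 lies next to another gene of the family in the reference annotation, unlike the pairs BGLU45 and BGLU46, BGLU21 and BGLU22, BGLU31 and BGLU32, and BGLU43 and BGLU44. Genes beside the 2 were looked up after the values were seen. AT2G32870, on one side of BGLU33, fell on all 4 days, at log2 differences of −0.85, −1.35, −1.15 and −2.41 (limma adjusted p = 0.00192, 2.79e-05, 5.41e-05 and 6.34e-08). Its day 1 call was lost with only the 6 arrays compared (adjusted p = 0.0618). AT2G32850, on the other side, passed on no day, with differences of 0.08, −0.11, −0.08 and −0.04. AT4G21770, beside BGLU47, was at 0.11 on day 10 (limma adjusted p = 0.285), where BGLU47 was at −3.13. The gene on the other side of BGLU47 is not analysed here.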

How the data were processed

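Expression was measured in 15 arrays of biotin-labelled samples, and the authors deposited 1 column of normalised intensity per array. Per the submitters' processing notes RMA and Partek were used. The sources used here give neither their versions and roles nor the background correction. The deposited intensity is linear and has nearly equal distributions, so log2 was taken with no pseudocount and no further scaling. Of 38408 probe sets, 16722 are annotated to 1 gene, 759 to several and 20927 to none. Identifiers were matched to TAIR10.1 gene names, and 16574 matched. No build is named for the array, so positions are left out. No detection calls or scanner files were used.

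limma 3.58.1 in R 4.3.3 fitted 1 mean per day over all 15 arrays (10 residual degrees of freedom). Two-sided tests of days 1, 2, 4 and 10 against day 0 were adjusted by Benjamini-Hochberg over all probe sets, with a threshold of 0.05. Each pool holds separate plants, and p-values reflect the spread among 3 pools a day, so the small number of arrays sets the precision. The fit was tested on simulated data. The 2 genes and the lists were chosen with earlier results of these data known. All matched genes of the BGLU list are named, with up to 5 of each other list by smallest adjusted F p and the 5 genes most like each member. COR6.6, AT3G02480 and HIS1-3, outside that rule, and the genes beside each member were named after their values were seen. Replicate numbers did not pair the pools: deviations of same-numbered pools of different days correlated at −0.16 to 0.118. Alternatives were median centring, cyclic loess, a replicate block, only the 6 arrays compared, 16 added before log2, leaving out the dimmest 25% of probe sets, the mean of all probe sets of a gene, and leaving out each pool. Figures used Python 3.11.15 and matplotlib 3.10.9.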

Additional observations from a re-analysis of the deposited data

How the results depend on the processing

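The log2 differences of BGLU33 and BGLU47 from day 0 moved by less than their SD between pools in every alternative run. Without 1 pool, BGLU33 ranged from −0.41 to −0.19 on day 1, −1.08 to −1.04 on day 2, −0.25 to −0.15 on day 4 and 0.11 to 0.19 on day 10, and BGLU47 from −0.06 to 0.10, −0.66 to −0.49, −1.10 to −0.94 and −3.21 to −3.05. Each gene has 1 probe set, so averaging probe sets left both as they were. With only the 6 arrays compared, 917 probe sets were called on day 1 and 5021 on day 2, and 1 and 3 of the 22 other BGLU genes, from fits with fewer arrays. Without 1 pool, the probe sets called on day 1 numbered 1190 (without day 0 replicate 2) to 1836, and the BGLU genes 1 to 2, 4 to 5, 4 to 6 and 9 to 12 on days 1, 2, 4 and 10. With the replicate number as a block, the BGLU genes called were again 2, 5, 5 and 11, and among the calls tested in this way UGT72E1, UGT72B1, COR6.6 (adjusted p = 0.0828) and IRX15 (adjusted p = 0.0818) lost their calls on day 1 and no other call changed. Of 93 calls run through the alternatives, those of the named genes of the lists, of the genes beside BGLU33 and BGLU47 and of the family between day 10 and day 4, 71 held in every alternative and 0 reversed. The alternatives for the neighbouring genes and for day 10 against day 4 were chosen after seeing the data. Dim probe sets limit what can be seen of 6 BGLU genes and of BGLU24 on day 10. They also limit UGT71B8, UGT72E2, UGT72E3, COR15B, EXPA18 and the listed peroxidase PRX25. UGT72E1 and HIS1-3 lay below the lower quartile on 4 arrays each, and KIN1, IRX15 and UGT71B6 on 3 arrays each.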
